A study of Mus musculus with 4 samples.

Results

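Open chromatin was described at 10 genes that restrain Wnt signalling: the intracellular feedback genes Axin2, Nkd1 and Nkd2, the membrane ubiquitin ligase genes Rnf43 and Znrf3, the secreted antagonist genes Dkk1, Dkk2, Dkk3 and Sfrp1, and the membrane inhibitor gene Apcdd1. Every peak whose nearest annotated gene was one of them was taken, which gave 61 of 70436 peaks at 9 of the 10 genes; Apcdd1 had no row among them and is not analysed here. The assay was ATAC-seq, in which a transposase cuts and tags open DNA, so that tags per peak measure accessibility. All libraries came from melb-a cells, a mouse melanoblast line labelled wild type, grown with the growth factors SCF and Fgf2, infected with a lentivirus that carries a short hairpin RNA (shRNA) and selected with puromycin. The Hira arm held 2 libraries, with the hairpins shHIRA I (hairpin I) and shHIRA II (hairpin II) against Hira, which encodes a chaperone that deposits histone H3.3. Its controls were 2 libraries infected with a luciferase hairpin (control 1) or a scrambled one (control 2). The comparison asked how accessibility changed when Hira was knocked down; the peak table holds no RNA or protein values, so the degree of knockdown and the expression of these genes were not measured.

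Wnt ligands bind Frizzled and LRP receptors and stop the destruction complex from degrading beta-catenin, which then joins TCF and LEF factors on DNA. The pathway switches on several of its own brakes, Axin2, Nkd1, Rnf43 and Znrf3 among them, and such genes are read as marks of pathway activity. Wnt signalling directs neural crest cells towards the pigment lineage, and secreted DKK1 is known from human skin to lower melanocyte growth and pigmentation.

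Depth was 14718721 and 8910983 tags in peaks under hairpins I and II, and 20716859.5 and 15804532 in controls 1 and 2, so hairpin II gave the least precise values. Controls 1 and 2 differed from each other by less than the sampling noise (chi-square per peak 0.933, against 6.24 for the Hira pair), and were counted as 1 sample in each control level. All p-values measure only the spread between these libraries. Of 10 melanoblast markers, 7 had a peak within 1 kb of a transcription start site (TSS), with summed levels of 235 and 237 CPM (tags scaled to a common library size) under hairpins I and II, against 263 and 254 CPM in controls 1 and 2. Of the keratinocyte markers 0 of 7 had one, of the fibroblast markers 3 of 10 (80.7 and 70.5 CPM under hairpins I and II, against 63.0 and 58.2 CPM in the controls), and of the Schwann cell markers 5 of 5 (96.0 and 102 CPM, against 104 and 109 CPM). The fibroblast sum was higher under both hairpins, and its part in the results below was not tested.

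Promoter sequence is shown for 3 of the genes because the start sites differed in whether a peak covered them. The windows are the 250 bases before the TSS, from RefSeq on GRCm38.p6 (the mm10 assembly), 5′ to 3′ on the strand of the gene, with CG dinucleotides in capitals. A window was found for 6 of the 10 genes. The Axin2 window (chr11:108920099-108920348, plus strand) lay wholly inside a peak, the Nkd2 window (chr13:73847632-73847881, minus strand) had 140 bases in a peak, and the Dkk1 window (chr19:30549497-30549746, minus strand) had 0.
Axin2: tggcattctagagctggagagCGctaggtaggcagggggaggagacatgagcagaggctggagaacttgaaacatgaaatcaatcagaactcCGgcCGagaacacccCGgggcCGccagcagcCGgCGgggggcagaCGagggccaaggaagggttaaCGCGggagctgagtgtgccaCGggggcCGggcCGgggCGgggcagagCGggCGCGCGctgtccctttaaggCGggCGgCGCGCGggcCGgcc
Nkd2: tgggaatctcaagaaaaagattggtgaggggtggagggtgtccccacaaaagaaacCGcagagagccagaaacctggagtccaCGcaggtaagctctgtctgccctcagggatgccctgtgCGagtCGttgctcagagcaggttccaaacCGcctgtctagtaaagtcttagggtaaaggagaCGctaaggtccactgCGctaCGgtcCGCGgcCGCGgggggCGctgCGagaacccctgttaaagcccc
Dkk1: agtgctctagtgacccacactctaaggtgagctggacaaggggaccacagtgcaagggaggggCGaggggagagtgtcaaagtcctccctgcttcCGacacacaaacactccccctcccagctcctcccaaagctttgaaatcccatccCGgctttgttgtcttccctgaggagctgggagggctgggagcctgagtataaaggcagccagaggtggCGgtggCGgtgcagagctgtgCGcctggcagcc
Axin2 held 24 CG dinucleotides, Nkd2 14 and Dkk1 6, against a median of 6 over 32851 windows. The motifs CTTTGAT (TCF/LEF), TGANTCA (AP-1), CATGTG and CACGTG (E-boxes), searched on both strands, had 0 matches in these windows; 3.21%, 6.75%, 12.3% and 6.02% of all windows hold them. TATAAA, chosen after the sequences were seen, stood once in the Dkk1 window and in 12.4% of all windows. A match or its lack is a description of these letters only.

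The 6 peaks within 1 kb of a TSS, at Axin2, Nkd1, Nkd2, Rnf43 and Znrf3, did not pass the test in either direction. Dkk1, Dkk2, Dkk3 and Sfrp1 had no peak that near. Among distal peaks, single ones rose or fell. Over all peaks too, fewer passed within 1 kb of a TSS (7.45%) than beyond it (29.0%), and 6 peaks are too few to tell these genes from that share. In edgeR's quasi-likelihood test on the 4 libraries (adjusted p under 0.05 over all peaks), 6 of the 61 peaks rose and 5 fell under the Hira hairpins, 9.84% and 8.20%. Among all tested peaks 14.4% were higher and 11.0% lower, so these shares were not above the background; in either direction it was 11 of 61 (18.0%), against 25.3%. The scaling behind the authors' fold changes gave 6 rises and 8 falls here, and 7778 higher and 13295 lower peaks in all, against 10127 and 7713. The rises were at Sfrp1 and Dkk3 (2 each), Nkd1 and Znrf3, and the falls at Dkk1, Nkd1, Sfrp1 and Znrf3 (2). Axin2, Nkd2, Rnf43 and Dkk2 had no peak that passed. The median log2 fold change over the 61 peaks was −0.10, against 0.0019 over all tested peaks, with SDs of 0.94 and 0.93.

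These calls rest on counting the controls as 2 libraries. With the controls summed to 1 sample, edgeR's quasi-likelihood test called 0 of 70431 peaks (15562 at an unadjusted p under 0.05), and 0 of the 61. At an unadjusted p under 0.05 that fit had 10 of the 61, including 8 of the 11 called above. With the controls summed, edgeR's newer quasi-likelihood estimate and its likelihood ratio test each called the same 6 of the 11: the Dkk1 peak, the falling Nkd1 peak, both rising Sfrp1 peaks, and the Znrf3 peaks 10.2 and 53.4 kb downstream of the TSS. In both of these fits a smaller share of the 61 peaks than of all peaks was called. Without any test, 4 peaks lay at least 2-fold higher under both hairpins (6.56%, against 8.18% of all peaks) and 3 at least 2-fold lower (4.92%, against 5.73%).

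Both hairpins lay above both controls at 15 peaks (24.6%, against 34.5% of all peaks) and below both at 21 (34.4%, against 34.3%).

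**Figure D1:**
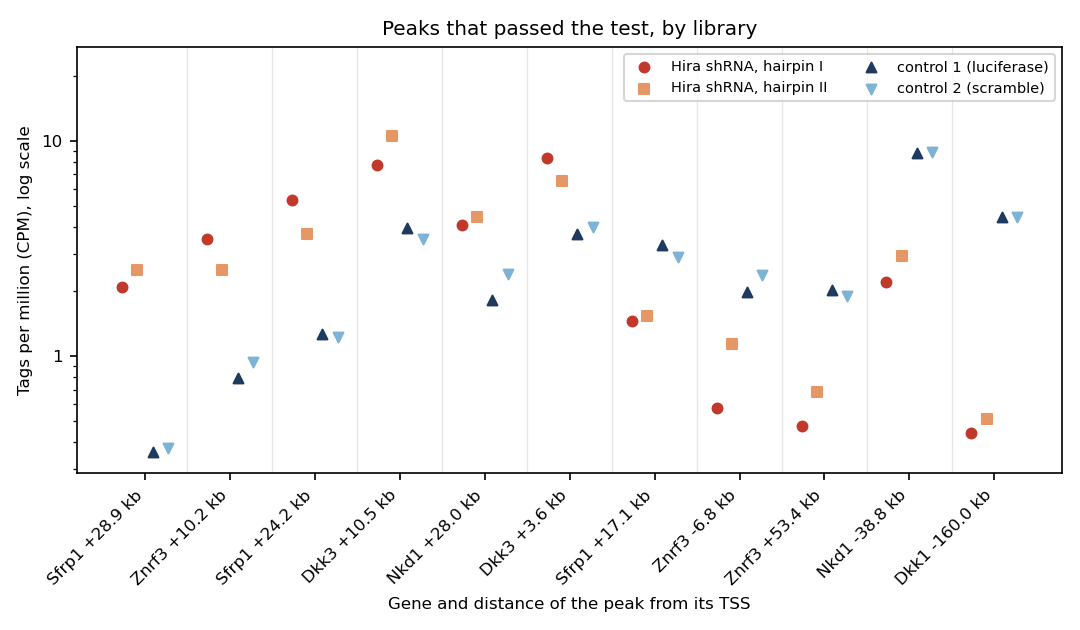
CPM in each library (log axis) at the 11 peaks that passed the test with 4 libraries, ordered by log2 fold change, with the 2 Hira hairpins left of the 2 controls in each column. At all 11 peaks both hairpins lay on one side of both controls, which the test that picked them favours.

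All 11 called peaks lay between 3.63 and 160 kb from the assigned TSS. Within 1 kb of a TSS 0 of 6 peaks were called, against 7.45% of all such peaks, and beyond 1 kb 11 of 55, against 29.0%. Introns held 27 of the 61 peaks, and 29 lay between genes. The 6 rising peaks and 3 of the falling ones lay in introns, and the other 2 falling peaks between genes. The shares called among all intron and intergenic peaks were not computed, so these counts have no background. The called peaks were weaker than the rest, with a median level of 2.56 CPM under Hira shRNA and 2.16 CPM in the controls, against 4.08 and 4.41 CPM for the 50 peaks not called. Repeats held 9 of the 61 peaks, of which 1 rose and 2 fell, beside 29.5% called among all peaks in repeats.

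**Figure D2:**
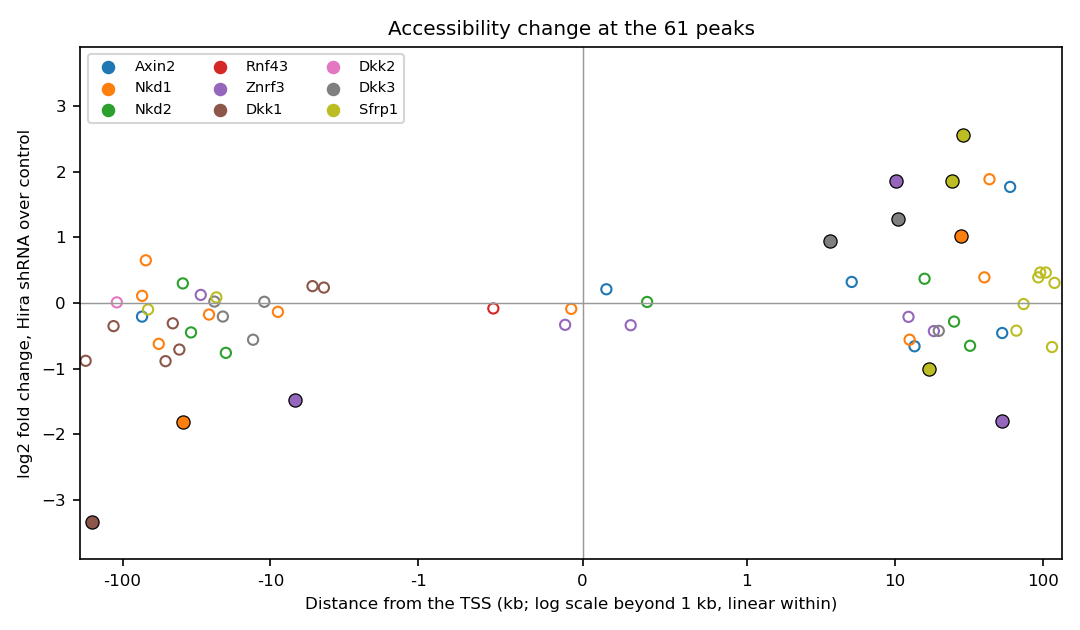
Log2 fold change (Hira shRNA over control) of each of the 61 peaks against its distance from the assigned TSS in kb, upstream to the left, coloured by gene; filled points passed the test with 4 libraries. The 6 peaks within 1 kb lay between −0.34 and 0.21, and the filled points lay at 3.63 kb or further.

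Axin2 encodes the scaffold of the destruction complex that beta-catenin itself induces. Its peak at the TSS, annotated to the 5′ UTR (chromosome 11, 108920090 to 108920899), had 21.0 and 14.4 CPM under hairpins I and II, against 14.6 and 16.2 CPM in controls 1 and 2. Hairpin I was above both controls and hairpin II below both (log2 fold change 0.21, SE 0.20, edgeR adjusted p = 0.491). Its fold change turned negative under the scaling behind the authors' fold changes (−0.078) and without hairpin I (−0.091). The Axin2 peaks gave edgeR adjusted p-values between 0.056 and 0.724. The peak with the lowest of these, like the strongest peaks of Nkd2 and Dkk3 and the inner Znrf3 start site below, was picked out after its values were seen; it lay between genes, 60.3 kb downstream (chromosome 11, 108980423 to 108980891), with 7.03 and 2.45 CPM under hairpins I and II, against 1.63 and 1.29 CPM in the controls. Most of that difference came from hairpin I; the peak passed in the DESeq2 Wald test (adjusted p = 0.0313), and the authors' deposited table calls it higher.

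Nkd1 and Nkd2 encode Naked cuticle proteins, which bind Dishevelled and dampen the signal. At the Nkd1 promoter (chromosome 8, 88520744 to 88521806) levels were 18.6 and 17.7 CPM under hairpins I and II, against 19.5 and 19.4 CPM in the controls (log2 fold change −0.09, SE 0.12, edgeR adjusted p = 0.613). An intergenic peak 38.8 kb upstream (chromosome 8, 88482198 to 88482821) fell to 2.21 and 2.91 CPM under hairpins I and II, against 8.78 and 8.85 CPM in the controls. The hairpins lay 3.44-fold below the control on average (2.56 ± 0.495 CPM, SD, n = 2, against 8.81 CPM, n = 1; log2 fold change −1.81, SE 0.24, edgeR adjusted p = 0.0126, and 0.0803 with the controls summed). Nkd1 has another annotated start site inside the gene, and 0 of the 250 bases before it lay in a peak. In the opposite direction, a peak in intron 1 of that transcript, 28.0 kb downstream of this inner start site (chromosome 8, 88555380 to 88555958), rose. It had 4.08 and 4.45 CPM, against 1.82 and 2.42 CPM in the controls (log2 fold change 1.02, SE 0.26, edgeR adjusted p = 0.0396). Its call, not its direction, was lost under the authors' scaling (log2 fold change 0.755, edgeR adjusted p = 0.0857) and by DESeq2 (1.02, adjusted p = 0.195).

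Another peak in the same intron, 43.7 kb downstream of the inner Nkd1 start site, was picked out after its values were seen. It had 16.5 CPM under hairpin I and 4.16 CPM under hairpin II, against 2.78 and 2.95 CPM in the controls. Hairpin I stood apart from the other 3 libraries, and the peak did not pass (log2 fold change 1.89, SE 0.62, edgeR adjusted p = 0.0751), though it did in the DESeq2 Wald test (adjusted p = 0.00492). At Nkd2 0 of 7 peaks passed. The peak 0.393 kb from its TSS, in a CpG island (chromosome 13, 73846706 to 73847771), had 13.1 and 15.5 CPM under hairpins I and II, against 13.7 and 14.5 CPM in the controls, so the hairpins lay on both sides of the controls (log2 fold change 0.02, SE 0.15, edgeR adjusted p = 0.948). At Nkd2 the strongest peak, intergenic and 34.4 kb upstream, had 22.5 CPM under hairpin I and 48.5 CPM under hairpin II, against 47.9 and 46.8 CPM in the controls. It rests on 331.5 and 425 tags under hairpins I and II, so the hairpins differed there by more than counting error; whether Hira or the single libraries account for it cannot be told apart.

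Znrf3 and Rnf43 encode ubiquitin ligases that clear Frizzled from the cell surface. Znrf3 had peaks at both of its annotated start sites. The outer one (chromosome 11, 5444718 to 5445188) had 14.7 and 15.1 CPM under hairpins I and II, against 17.8 and 19.7 CPM in the controls (log2 fold change −0.33, SE 0.13, edgeR adjusted p = 0.118). Its inner one (chromosome 11, 5380888 to 5382007) had 11.8 and 15.7 CPM, against 17.1 and 17.4 CPM (log2 fold change −0.34, SE 0.17, edgeR adjusted p = 0.21). Both hairpins were below both controls at each start site, but neither difference passed the test.

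Between these start sites, in intron 1 of the longer Znrf3 transcript, a peak 10.2 kb downstream (chromosome 11, 5434455 to 5434902) rose to 3.50 and 2.51 CPM under hairpins I and II, against 0.790 and 0.942 CPM in the controls. That was 3.51-fold (log2 fold change 1.86, SE 0.31, edgeR adjusted p = 0.0154, and 0.0951 with the controls summed). A peak in an RMER6BA retroviral repeat, 53.4 kb downstream of the inner start site (chromosome 11, 5328115 to 5328525), fell to 0.476 and 0.684 CPM, against 2.03 and 1.91 CPM in the controls (log2 fold change −1.79, SE 0.32, edgeR adjusted p = 0.0179). An intergenic peak 6.79 kb upstream (chromosome 11, 5451497 to 5451788) fell to 0.578 and 1.14 CPM, against 1.99 and 2.39 CPM (log2 fold change −1.48, SE 0.38, edgeR adjusted p = 0.0425). Both falling peaks rest on few tags, 7 and 6 under hairpins I and II at the repeat and 8.5 and 10 at the upstream peak. Neither fall passed in the DESeq2 Wald test, with a log2 fold change of −1.78 (adjusted p = 0.153) at the repeat and −1.43 (adjusted p = 0.234) upstream. The upstream peak also missed the threshold in edgeR with cyclic loess offsets (−1.11, adjusted p = 0.0867) and without hairpin I (−0.924, adjusted p = 0.0844). The 1 Rnf43 peak, 0.543 kb upstream of its TSS (chromosome 11, 87662247 to 87662841), had 6.15 and 3.59 CPM under hairpins I and II, against 4.71 and 5.93 CPM in the controls, with hairpin I the highest of the 4 libraries and hairpin II the lowest (log2 fold change −0.08, SE 0.31, edgeR adjusted p = 0.867).

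**Figure D3:**
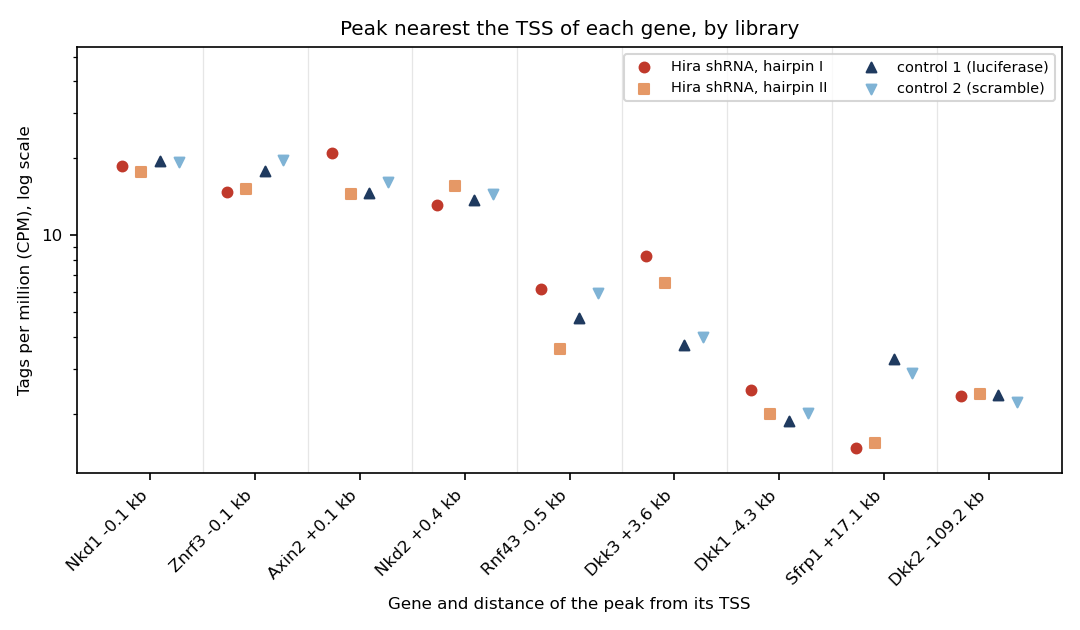
CPM in each library (log axis) at the peak nearest the TSS of each of the 9 genes, ordered by distance, with the 2 Hira hairpins left of the 2 controls. Of these 9 peaks 2 passed the test with 4 libraries, the Dkk3 peak (higher) and the Sfrp1 peak (lower); the 5 peaks within 1 kb did not pass.

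Per kb of peak, the outer Znrf3 start site was the highest of the 6 peaks within 1 kb of a TSS, at 31.7 CPM per kb under Hira shRNA and 39.6 CPM per kb in the controls. Axin2 (21.8 against 18.9 CPM per kb) and Nkd1 (17.1 against 18.3 CPM per kb) followed in both arms, and Rnf43 (8.19 against 8.81 CPM per kb) was the lowest. Nkd2 (13.4 against 13.2 CPM per kb) and the inner Znrf3 start site (12.3 against 15.4 CPM per kb) stood between them and changed places between the arms. In both arms the libraries of the arm differed more at Axin2 than the mean levels of Axin2 and Nkd1 did.

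For the secreted antagonists the nearest peak lay further out, at 3.63 kb for Dkk3, 4.35 kb for Dkk1, 17.1 kb for Sfrp1 and 109 kb for Dkk2. Dkk1, Dkk2 and Dkk3 belong to the Dickkopf family, of which DKK1 blocks the LRP co-receptors. The largest change among the 61 peaks was at Dkk1. It lay 160 kb upstream in an L1 repeat (Lx8; chromosome 19, 30709320 to 30709771), where levels fell to 0.442 and 0.513 CPM under hairpins I and II, against 4.43 and 4.43 CPM in controls 1 and 2. The libraries held 6.5 and 4.5 tags under hairpins I and II, against 92.5 and 70.5 tags in the controls. The fall was 9.27-fold (0.477 ± 0.0506 CPM, SD, n = 2, against 4.43 CPM, n = 1; log2 fold change −3.34, SE 0.30, edgeR adjusted p = 0.0125, and 0.0704 with the controls summed). Both of those p-values are the lowest that any peak reached in its fit.

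That peak and 5 others of the 8 assigned to Dkk1 lie in introns of Prkg1, which encodes a cGMP-dependent protein kinase, since peaks were assigned to the nearest TSS; which gene a peak serves was not measured. The 7 other Dkk1 peaks had log2 fold changes between −0.89 and 0.26 and edgeR adjusted p-values between 0.0743 and 0.534. At 6 of the 8 peaks both hairpins lay below the summed controls, as at 39.0% of all peaks. These 6 are the peaks in Prkg1 introns. The peaks outside Prkg1, 5.19 and 4.35 kb upstream of the Dkk1 TSS, had log2 fold changes of 0.26 and 0.24. Summed over all 8 peaks, 6 of them in Prkg1 introns, Dkk1 had 26.2 and 24.2 CPM under hairpins I and II, against 36.4 and 37.5 CPM in the controls. In the same edgeR quasi-likelihood test on tags summed per gene, Dkk1 fell (log2 fold change −0.55, SE 0.09, adjusted p = 0.0271, and 0.288 with the controls summed). Without the L1 peak the log2 fold change of Dkk1 was −0.40 (edgeR adjusted p = 0.0491). Dkk1 was the 1 gene of the 9 to pass on summed tags, where 14.0% of all genes passed, 8.07% higher and 5.90% lower. The peak nearest the Dkk1 TSS had 2.48 and 2.00 CPM, against 1.87 and 2.01 CPM in the controls (log2 fold change 0.24, SE 0.25, edgeR adjusted p = 0.527).

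Dkk3 encodes a divergent Dickkopf protein that does not block LRP as DKK1 does. Both peaks that rose lie in introns of the gene. The one 10.5 kb downstream of the assigned TSS (chromosome 7, 112147961 to 112148436) rose to 7.75 and 10.5 CPM under hairpins I and II, against 3.95 and 3.52 CPM in the controls, 2.42-fold (log2 fold change 1.28, SE 0.24, edgeR adjusted p = 0.0192). Another, 3.63 kb downstream, in an RSINE1 repeat (chromosome 7, 112154537 to 112155586), rose to 8.29 and 6.50 CPM, against 3.71 and 3.99 CPM (log2 fold change 0.94, SE 0.23, edgeR adjusted p = 0.0341). This smaller rise kept its direction but missed the threshold under the authors' scaling (log2 fold change 0.664, edgeR adjusted p = 0.0854) and by DESeq2 (0.934, adjusted p = 0.1). Neither Dkk3 rise is called higher in the authors' deposited table. The strongest Dkk3 peak, 19.8 kb downstream, had 30.9 and 38.4 CPM, against 47.5 and 44.7 CPM, both hairpins below both controls (log2 fold change −0.42, SE 0.12, edgeR adjusted p = 0.0538). On summed tags Dkk3 had 82.8 and 102 CPM under hairpins I and II, against 98.4 and 98.4 CPM in the controls, so that the hairpins lay on both sides of the controls (log2 fold change −0.10, edgeR adjusted p = 0.512). The 1 Dkk2 peak was level, with 2.34 and 2.39 CPM, against 2.37 and 2.23 CPM (log2 fold change 0.01, SE 0.24, edgeR adjusted p = 0.993).

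Sfrp1 encodes a secreted Frizzled-related protein that binds Wnt ligands outside the cell. Its 3 called peaks all lay in its last intron, and they moved in both directions. The peak 28.9 kb downstream of the TSS (chromosome 8, 23440295 to 23440507) rose to 2.11 and 2.51 CPM under hairpins I and II, against 0.359 and 0.377 CPM in the controls. With 31 and 22 tags under hairpins I and II, against 7.5 and 6 tags in the controls, it rose 6.29-fold (log2 fold change 2.56, SE 0.31, edgeR adjusted p = 0.0125, and 0.0704 with the controls summed). The peak 24.2 kb downstream (chromosome 8, 23435540 to 23435951) rose to 5.30 and 3.71 CPM, against 1.27 and 1.22 CPM, 3.60-fold (log2 fold change 1.86, SE 0.29, edgeR adjusted p = 0.0147). In contrast, the peak 17.1 kb downstream (chromosome 8, 23428379 to 23428890) fell to 1.46 and 1.54 CPM, against 3.28 and 2.89 CPM (log2 fold change −0.998, SE 0.25, edgeR adjusted p = 0.0398). At each of these peaks the hairpins differed less from each other than from the controls, which the test that picked them favours. The fall did not pass in the DESeq2 Wald test (log2 fold change −1.002, adjusted p = 0.309).

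The other 9 Sfrp1 peaks had log2 fold changes between −0.67 and 0.47 and edgeR adjusted p-values between 0.119 and 0.923. Summed over all 12 peaks, Sfrp1 had 77.8 and 68.3 CPM under hairpins I and II, against 64.4 and 62.7 CPM in the controls. Both hairpins were higher, but the gene did not pass (log2 fold change 0.20, SE 0.08, edgeR adjusted p = 0.155), and the value was −0.066 under the authors' scaling.

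**Figure D4:**
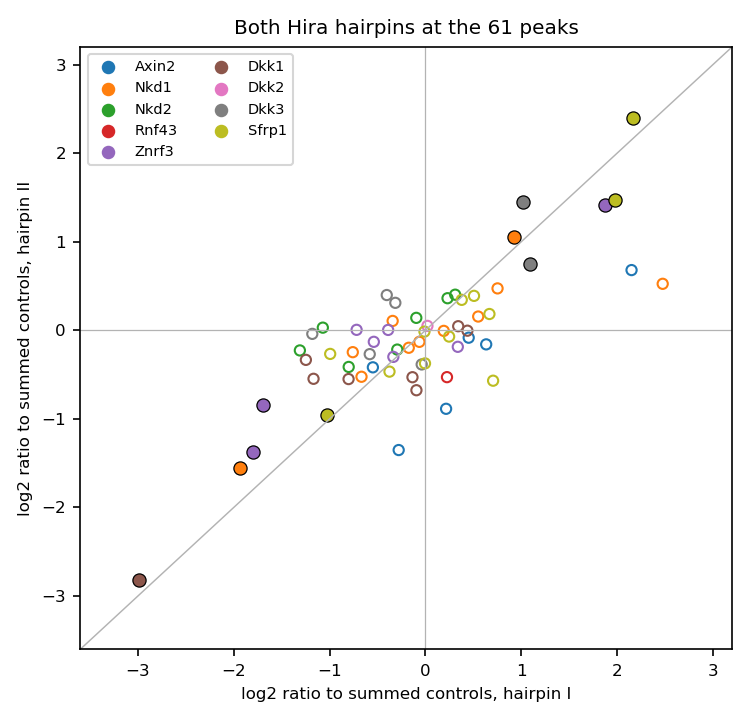
Log2 ratio of each Hira hairpin to the summed controls at the 61 peaks, hairpin I on the x axis and hairpin II on the y axis, with the line of equality; filled points passed the test with 4 libraries. All filled points lie in the quadrants where the hairpins share a direction, which the test that picked them favours. The other quadrants hold 16 of the 61 peaks.

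The hairpins pointed the same way at 45 of the 61 peaks (73.8%, against 77.8% of all peaks). Both lay higher than the summed controls at 17 (27.9%, against 38.7%) and lower at 28 (45.9%, against 39.0%). Both ratios share those controls, so agreement between them is not independent. Hairpin I lay further from the control at 43 of the 61 peaks (70.5%, against 65.9% of all peaks). At least a 2-fold difference was seen under hairpin I only at 10 peaks (16.4%, against 13.4%) and under hairpin II only at 2 (3.28%, against 3.21%). The hairpins differed 2-fold from the control in opposite directions at 0 of the 61 peaks, and at 18 of all 70436. With 1 library per hairpin these differences were not tested. The authors' deposited table calls 5 of the 61 peaks higher (8.48% of all peaks) and 5 lower (11.8% of all peaks). The 5 lower calls are the 5 falls given above, and 3 of the 5 higher calls are among the 6 rises; the other 2 are the Axin2 peak at 60.3 kb and the Nkd1 peak at 43.7 kb, where hairpin I was far above hairpin II.

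Other Wnt pathway genes were set beside these by counts of peaks that passed with 4 libraries. Of 99 peaks of Wnt ligand genes 18 were higher and 4 lower (18.2% and 4.04%, against 14.4% and 11.0% of all peaks), and of 116 peaks of receptor genes 20 were higher and 20 lower. The R-spondin genes and their receptors had 12 higher and 8 lower of 59 peaks. Genes of the cytoplasmic relay had 1 higher and 3 lower of 31, and nuclear factors 9 higher and 5 lower of 68. Other secreted inhibitors had 4 higher and 5 lower of 30, and other target genes, of which some are in a list above as well, 11 higher and 7 lower of 69. Over the 77 listed genes, 74 with a peak, 75 of 460 peaks were higher and 51 lower (16.3% and 11.1%), with a median log2 fold change of 0.08 against 0.0019 over all peaks.

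**Figure D5:**
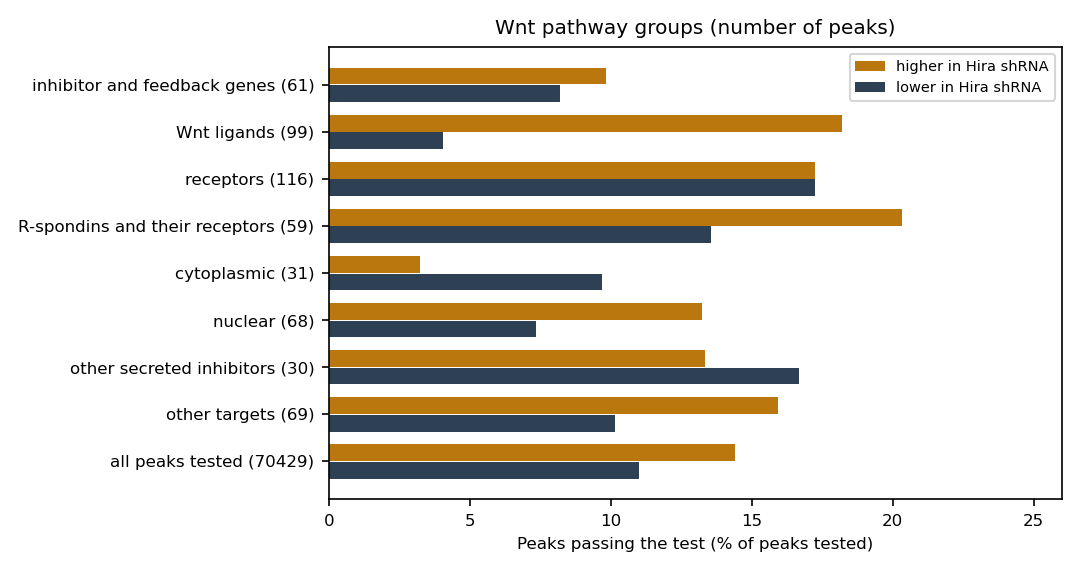
Share of peaks that passed the test with 4 libraries, higher (upper bar) and lower (lower bar) in Hira shRNA, for the inhibitor and feedback genes, the other Wnt pathway groups and all peaks tested, with the number of peaks in brackets. The inhibitor and feedback genes stood at 9.84% higher and 8.20% lower, and all peaks at 14.4% and 11.0%.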

How the data were processed

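Accessibility was measured by ATAC-seq in 4 libraries of melb-a cells. Per the submitters' processing notes, the tools were MACS2 2.2.9.1, edgeR 3.38.4, cutadapt 2.3, Picard and Bowtie2 and the build mm10, with no roles given; read filters, transposase shift and merging of peaks are not given in the sources used here. The deposited table holds 1 peak set with estimated counts of tags per library in steps of 0.5, rounded here before each test. The authors deposited a log2 fold change, a mean log2 CPM, a likelihood ratio statistic (a score) and p-values per peak, per the file headers; a cutoff of 0.01 on the adjusted p together with a log2 change of 1 or more in size returns their call at all 70436 peaks. The Hira columns, named as knockouts, were matched to hairpins by number.

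Peaks were tested in R 4.3.3 by the quasi-likelihood method of edgeR 4.0.16, after filterByExpr, with TMM scaling and group as the only term, two-sided, Benjamini-Hochberg adjusted over 70429 peaks; all 61 peaks passed the filter. Each SE is the size of the log2 change divided by the root of its F value. CPM are tags over TMM-scaled library sizes, 2 tags were added as a prior in each ratio to the controls' sum, and summed tags per gene were tested over 18478 genes. The scaling behind the authors' fold changes was estimated from 46005 peaks, each over 30 tags in every library (residual SD 0.014); with it the median log2 fold change of all peaks was −0.26, and changes here are relative to the median peak. The fit was tested on simulated data with a coefficient of variation of 0.15 in all 4 libraries. In the real data it was 0.237 for the Hira pair and 0.010 for the control pair. The simulation recovered 46 of 100 log2 changes of 1 in size and 100 of 100 of 2, with 6 false calls. It cannot show how the fit behaves when the pairs differ in spread. Alternatives included DESeq2 1.42.0 and limma-voom (limma 3.58.1); the fits with the controls summed by the other 2 tests, the block and the sum without the L1 peak were added after seeing the data. The genes and lists were chosen with earlier results of these data known. Named peaks were the peak nearest each TSS and up to 3 called peaks per gene and direction with the lowest p. Figures used matplotlib 3.10.9.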

Additional observations from a re-analysis of the deposited data

How the results depend on the processing

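Counts of calls depended on the controls and on which hairpin was included. With the controls summed the edgeR quasi-likelihood test called 0 peaks in either direction and 0 genes on summed tags (15562 of all peaks at an unadjusted p under 0.05); with the controls summed the newer estimate and the likelihood ratio test each called 3 higher and 3 lower. Leaving out 1 library gave 0 to 15 higher peaks, 0 to 19 lower peaks and 0 to 7 genes: 0 without control 1 or control 2, 7 higher, 10 lower and 3 genes without hairpin I, and 15, 19 and 7 without hairpin II, when the spread comes from the near-identical control pair. Lower peaks numbered 8 under the authors' scaling and 2 in the DESeq2 Wald test (13295 and 4947 over all peaks). On summed tags 2 genes passed in the likelihood ratio test. At an adjusted p under 0.01 and an absolute log2 of at least 1, 0 peaks passed in either direction, since the lowest adjusted p of the fit was 0.0125. The other filters, scalings and tests left each count within 1.5 times, and no alternative moved the 2-fold counts beyond that. The direction of all 11 called peaks was kept in every alternative, which the test that picked them favours.

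Values that did not pass changed sign as follows. Under the authors' scaling the log2 fold change was −0.078 at the Axin2 TSS peak, −0.054 at the Dkk1 peak nearest the TSS, −0.28 at Dkk2 and −0.23 at the Nkd2 TSS peak, and −0.17, −0.24 and −0.066 for the summed tags of Axin2, Nkd1 and Sfrp1. With total tags it was −0.012 at Dkk2 and −0.0070 at the Nkd2 TSS peak. With libraries left out it lay between −0.091 and 0.45 at the Axin2 TSS peak, −0.027 and 0.056 at Dkk2, −0.094 and 0.14 at the Nkd2 TSS peak, and −0.51 and 0.23 at Rnf43. For summed tags it lay between −0.29 and 0.43 at Axin2, −0.11 and 0.15 at Nkd1, −0.61 and 0.052 at Nkd2, and −0.25 and 0.042 at Dkk3. The causes were not tested.

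The labels pair no libraries. A replicate block on the column numbers in the edgeR test called 8 higher and 6 lower. Deviations of same-numbered libraries correlated at −0.017 across peaks. Since the controls differed by less than the sampling noise, this value cannot tell whether same-numbered libraries were prepared together. Depth limits the weakest peaks, with as few as 4.5 tags in a library.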
